A study of Arabidopsis thaliana with 24 samples.

Results

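The 70 nuclear genes described here were selected on their mean levels in whole Arabidopsis thaliana seedlings 10 min after the quinone DMBQ: higher than mock in both card1 mutants and near mock in WT. They were 70 of the 11610 nuclear genes with a mean of at least 10 CPM over all 24 libraries, out of 33602 genes in the table, where CPM is a gene's count relative to its library's total on the usual per-megaread scale. The response of a gene in a genotype was log2 of (mean DMBQ CPM + 1) over (mean mock CPM + 1), and the genes were chosen by a response of at least 0.6 in card1-1 and in card1-2 and between -0.3 and 0.3 in WT. Because the responses of all 3 genotypes chose the genes, they are given below as a description.

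WT is a Col-0 line that expresses aequorin, a calcium-reporting photoprotein, and card1-1 and card1-2 are both in that aequorin background, so every group carries the reporter. Seedlings were 7 days old and grown in liquid; the treatment was 5 µM DMBQ, a methoxylated benzoquinone, and the mock was its solvent DMSO, each for 10 min. Each of the 6 groups held 4 libraries. The sources used here describe neither the lesion of either card1 allele nor whether the 4 libraries of a group came from separate cultures, so each p-value rests on a spread between libraries that may be technical. RNA came from whole seedlings, in which fewer cells of a type and less RNA per cell cannot be told apart.

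CARD1 encodes a receptor kinase with extracellular leucine-rich repeats that is needed for responses to quinones and, under the name HPCA1, for sensing of extracellular hydrogen peroxide. Quinones such as DMBQ raise cytosolic calcium in Arabidopsis and induce a set of early stress genes, and parasitic plants use related quinones as signals of a host root. The 70 genes include parts of ribosomes, which make proteins, of mitochondrial import and respiration, of the proteasome, which degrades proteins, and small membrane or secreted proteins.

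Total gene counts ran from 2048246 to 9000207 per library. The CARD1 transcript (AT5G49760) was detected in every library, at 66.6 to 78.6 CPM in WT mock, 42.5 to 63.3 in card1-1 mock and 44.8 to 69.5 in card1-2 mock, so the ranges of WT and card1-2 overlapped and the level does not check the labels. The mock library card1-1 replicate 1 stood apart from the other mock libraries for the 70 genes, and the share of alignment records counted as not unique differed between groups, from a mean of 25% in card1-1 mock to 55.9% in card1-1 DMBQ. Among 12 early stress genes, 11 were measured above the CPM minimum and none was among the 70, and their median responses were 2.95 (WT), 2.03 (card1-1) and 2.43 (card1-2). Summed levels of 9 root genes, 3 of them above the CPM minimum, were 1580 to 1890 CPM in card1-2 mock and 980 to 1280 CPM in card1-2 DMBQ. In WT mock and DMBQ they were 1340 to 1410 and 1340 to 1940 CPM, and in card1-1 1260 to 1680 and 1320 to 1620 CPM. Those of 9 seed storage genes reached 27.4 CPM in 1 card1-1 DMBQ library and at most 0.815 CPM in the other groups. The summed level of 21 shoot photosynthesis genes was 21400 to 37000 CPM in card1-1 mock and 35900 to 42500 CPM in card1-1 DMBQ, and 31100 to 38400 and 32700 to 38000 CPM in card1-2. Their median responses were 0.13 (WT), 0.40 (card1-1) and 0.11 (card1-2), and edgeR called 10 of them higher and 2 lower in card1-1 (3.55% and 3.16% of all genes tested), and 0 higher and 1 lower in card1-2 (1.07% and 1.13%). None of these genes or of 3 vascular genes was among the 70, and their part in the result was not tested.

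Over the 70 genes the median response was 0.03 for WT, 0.81 for card1-1 and 0.70 for card1-2, where the median of all 11610 genes was -0.02, -0.02 and -0.06. Responses spanned 0.61 to 1.81 in card1-1 and 0.60 to 1.42 in card1-2, and 48 of the 70 were larger in card1-1. At a threshold of 0.5 the rule gave 123 genes, at 0.7 it gave 32 and at 1 it gave 5. Just inside the threshold were NOP10, a subunit of the particles that modify ribosomal RNA, at 0.602 and AT4G32340, a tetratricopeptide repeat protein, at 0.602. Just outside were AT1G09290 at 0.597, AT5G08760 at 0.594 and PAF2, a proteasome alpha subunit, at 0.589, each value being the smaller of the 2 mutant responses. Nearest the WT limits were NOP10 at 0.28 and PAC1 at 0.28 on the upper side and AIR12 at -0.24 and AT4G30670 at -0.23 on the lower side.

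**Figure D1:**
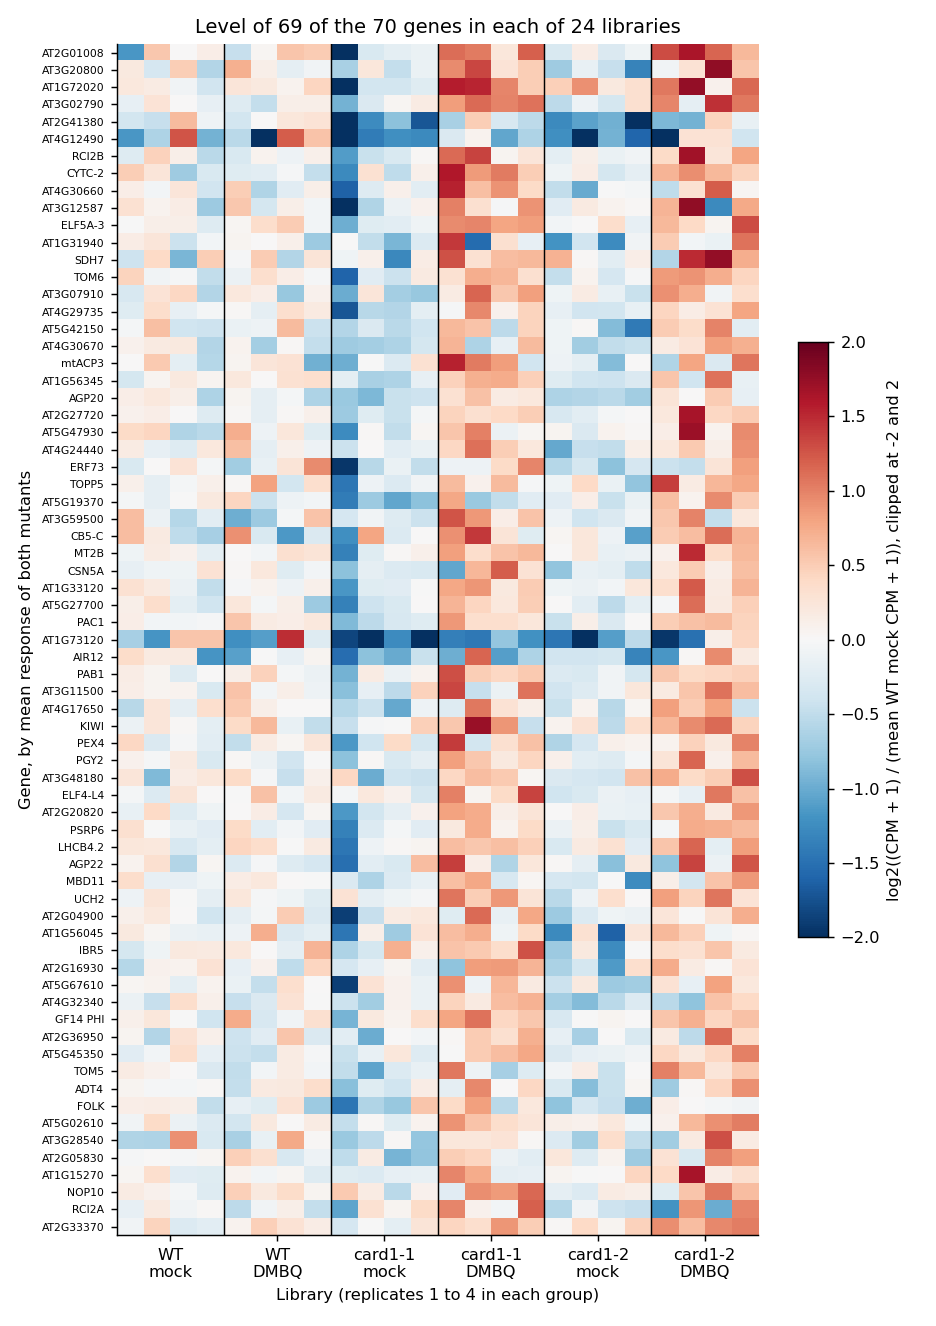
Level of 69 of the 70 genes (rows) in each of 24 libraries (columns), as log2 of (CPM + 1) over (mean WT mock CPM + 1), clipped at -2 and 2. The DMBQ libraries of both mutants are mostly red and the mock library card1-1 replicate 1 is mostly blue.

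edgeR's quasi-likelihood test over 17734 genes with Benjamini-Hochberg adjustment called 27 of the 70 higher after DMBQ in card1-1, where 3.55% of all genes tested were called higher. In card1-2 it called 16 of the 70 higher, against 1.07% of all genes, and 13 genes were called in both mutants. The rule used these same contrasts, so nothing is read from those counts. Every DMBQ library lay above every mock library for 36 of the 70 in card1-1 (5.57% of all genes kept), for 26 in card1-2 (3.29%), for 17 in both mutants (0.93%) and for 1, PAC1, in WT (4.32%). The difference itself was not called: for the response of both mutants minus that of WT, edgeR called 0 of the 70 higher, where 0.0226% of all genes were called higher. Of the 70, 42 had an unadjusted p under 0.05 in edgeR for that contrast. DESeq2 called 6 of the 70 and 123 of 17734 genes in either direction, and limma voom called 1 of the 70 and 22 in all. The lowest adjusted p in edgeR's quasi-likelihood test was 0.0569, for AT3G02790. The contrast with WT is built from the responses that chose the genes, so nothing is read from these counts either. The responses of the 2 alleles were not called different for any of the 70 by edgeR (0% of all genes) or by DESeq2 (23 genes in all). In edgeR, 1 of the 70 had an unadjusted p under 0.05. No share over all genes was taken for the unadjusted counts.

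Of the 70 genes, 3 met the rule in each of the 24 recalculations that left out 1 library: AT3G02790, PAB1 and TOM6. Their upstream sequences are shown for that reason, as the 250 bases before the annotated start in TAIR10.1, read 5′ to 3′ on the gene's strand, and capitals mark TGGGCC (site II), TATAAA and GATAAG (I-box) on either strand. The TOM6 window is chr1:18287035-18287284 on the minus strand, the PAB1 window is chr1:5622496-5622745 on the plus strand and the AT3G02790 window is chr3:604535-604784 on the plus strand. The windows of PAB1 and AT3G02790 each overlap 1 other annotated gene, and that of TOM6 overlaps none. Of the genes themselves, TOM6 overlaps AT1G49405 on the same strand, AT3G02790 overlaps AT3G02780 on the other strand and PAB1 overlaps none.
TOM6: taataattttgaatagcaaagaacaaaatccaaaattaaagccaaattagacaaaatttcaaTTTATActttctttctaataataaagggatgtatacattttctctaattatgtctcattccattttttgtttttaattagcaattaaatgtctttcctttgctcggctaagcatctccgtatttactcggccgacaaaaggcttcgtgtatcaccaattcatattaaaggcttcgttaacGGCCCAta
PAB1: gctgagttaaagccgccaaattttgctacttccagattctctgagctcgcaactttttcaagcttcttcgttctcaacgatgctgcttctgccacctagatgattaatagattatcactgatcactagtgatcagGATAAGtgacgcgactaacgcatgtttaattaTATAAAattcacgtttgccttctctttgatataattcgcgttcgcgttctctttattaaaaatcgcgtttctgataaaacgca
AT3G02790: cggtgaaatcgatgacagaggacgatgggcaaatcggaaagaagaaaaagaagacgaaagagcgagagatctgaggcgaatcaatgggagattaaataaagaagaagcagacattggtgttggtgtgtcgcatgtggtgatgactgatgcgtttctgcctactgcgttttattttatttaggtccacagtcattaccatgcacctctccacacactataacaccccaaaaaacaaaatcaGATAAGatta
Site II was found upstream of TOM6 alone among these, TATAAA upstream of TOM6 and PAB1, and the I-box upstream of PAB1 and AT3G02790.

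AT3G02790 encodes a C2H2 zinc finger protein and lies on chromosome 3 from 604785 to 605496. Its level was 49.3, 66.9, 55.4 and 49.4 CPM in the WT mock libraries and 45.97, 39.2, 59.9 and 59.9 CPM in WT DMBQ. In card1-1 it was 28.1, 45.2, 56.8 and 61.7 CPM in mock and 99.0, 123, 110.4 and 119 CPM in DMBQ. In card1-2 it was 38.0, 51.3, 43.1 and 69.1 CPM in mock and 109.9, 48.55, 154 and 115 CPM in DMBQ. Each card1-1 DMBQ library was above each card1-1 mock library, 3 of the 4 card1-2 DMBQ libraries were above all card1-2 mock libraries, and the WT groups overlapped. Its responses were -0.11 (WT), 1.22 (card1-1) and 1.07 (card1-2).

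PAB1 is an alpha subunit of the 20S proteasome, the barrel that degrades ubiquitin-tagged proteins. It was at 67.4, 63.5, 51.0 and 61.5 CPM in WT mock and at 65.9, 84.4, 59.1 and 56.2 CPM in WT DMBQ. The card1-1 mock libraries gave 31.1, 68.2, 56.05 and 64.0 CPM and the card1-1 DMBQ libraries 151, 86.2, 81.2 and 88.1 CPM. The card1-2 mock libraries gave 50.1, 48.98, 57.9 and 47.2 CPM and the DMBQ libraries 88.5, 79.8, 81.5 and 84.5 CPM. Mock and DMBQ did not overlap in either mutant and overlapped in WT. A second alpha subunit, PAC1, was at 28.1 ± 5.53 CPM in card1-1 mock and 54.5 ± 12.1 CPM in card1-1 DMBQ, and at 35.7 ± 6.41 and 57.6 ± 3.44 CPM in card1-2 (SD, n = 4 in each group). A set of 36 kept genes whose descriptions name the proteasome was gathered after the 70 were known. It includes genes described by a PCI domain, such as FUS5 and COP8, which may not be proteasome subunits. Of this set, PAB1 and PAC1 were the 2 that met the rule, and 17 had a response above 0 in both mutants. The set's median responses were 0.06 (WT), 0.23 (card1-1) and 0.04 (card1-2). UCH2, a ubiquitin hydrolase, was at 34.6 ± 5.34 CPM in card1-1 mock and 56.6 ± 14.5 CPM in DMBQ (SD, n = 4).

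TOM6 and TOM5 are small subunits of the translocase that carries proteins across the outer mitochondrial membrane. TOM6 was at 47.4, 32.8, 33.9 and 24.2 CPM in WT mock and 32.0, 44.1, 37.9 and 34.0 CPM in WT DMBQ. Its card1-1 mock libraries held 10.8, 29.6, 25.4 and 39.4 CPM and its card1-1 DMBQ libraries 42.75, 57.9, 55.6 and 43.4 CPM. In card1-2 the mock libraries held 24.45, 36.15, 27.1 and 34.1 CPM and the DMBQ libraries 63.2, 65.4, 57.6 and 46.9 CPM. The DMBQ libraries of each mutant lay above its mock libraries, while those of WT overlapped. TOM5 responded by -0.09 in WT, 0.61 in card1-1 and 0.70 in card1-2. Its card1-1 groups overlapped, at 9.954 to 19.43 CPM in mock. There, DMBQ replicate 1 was far above the other DMBQ libraries, which gave 13.4 to 20.11 CPM. Its card1-2 groups did not overlap. With 1 library left out, TOM5 met the rule in 20 of 24 recalculations. It did not meet the rule with TMM scaling, with the length and GC trend removed, or without the libraries above 55% of not-unique records. The 4 other translocase genes kept did not meet the rule, and TOM40, the pore, had responses of -0.11, -0.02 and -0.01.

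Cytochrome c carries electrons between the respiratory complexes. CYTC-2 was at 10.8 ± 5.08 CPM in card1-1 mock and 27.6 ± 9.58 CPM in DMBQ, and at 11.8 ± 1.86 and 21.1 ± 3.09 CPM in card1-2 (SD, n = 4). Its paralog CYTC-1, which was not among the 70, had responses of 0.18 in WT, 0.69 in card1-1 and 0.44 in card1-2. SDH7, a subunit of succinate dehydrogenase, had responses of 0.09, 0.93 and 0.89, and it was the 1 of 9 succinate dehydrogenase genes kept that met the rule. mtACP3, a mitochondrial acyl carrier protein, had responses of -0.01, 1.08 and 0.66, and its mock and DMBQ groups overlapped in both mutants.

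**Figure D2:**
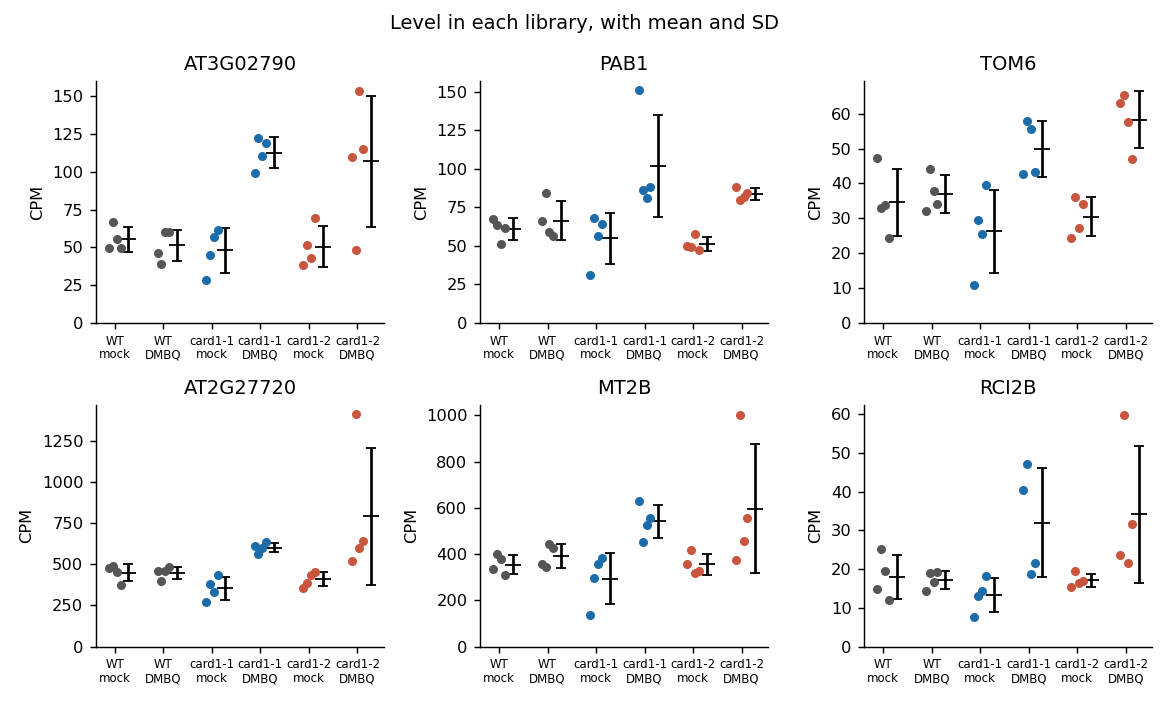
CPM in each library (points, by group) with the group mean and SD (bars, n = 4) for AT3G02790, PAB1, TOM6, AT2G27720, MT2B and RCI2B. PAB1 and TOM6 show no overlap of mock and DMBQ in either mutant, and single card1-2 DMBQ points stand high for AT2G27720 and MT2B.

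Ribosomal proteins were the largest functional class by description, with 10 of the 282 kept genes (3.55%) among the 70, which were chosen from 11610 genes kept. The class had a median response of 0.03 (WT), 0.45 (card1-1) and 0.23 (card1-2), and 197 of the 282 (69.9%) had a response above 0 in both mutants, where 27.9% of all genes kept did. edgeR called 97 of them higher and 5 lower in card1-1 (3.55% and 3.16% of all genes tested), 19 higher and 0 lower in card1-2 (1.07% and 1.13%), and 0 in WT in either direction (1.03%). The class was short, with a median exonic length of 1025 bases where that of all annotated genes kept was 1886. With all genes in 10 bins by length, the bins with median lengths of 859 and 1145 bases had median responses of 0.325 and 0.205 in card1-1. In card1-2 these bins had 0.215 and 0.126. The part of length in the class's responses was not tested. The description pattern also misses AT5G02610, a ribosomal L29 family gene that is among the 70.

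AT2G27720 encodes an acidic protein of the large ribosomal subunit's stalk and had the highest mean level of the 70. Its level was 479, 492, 454 and 375 CPM in WT mock and 457, 397, 457 and 480.5 CPM in WT DMBQ. It was 272, 382, 331 and 436 CPM in card1-1 mock and 613, 565, 596 and 632 CPM in card1-1 DMBQ. It was 359, 388, 436 and 455 CPM in card1-2 mock and 519, 1412, 597 and 639.7 CPM in card1-2 DMBQ. Both mutants' DMBQ libraries were above their mock libraries, with card1-2 DMBQ replicate 2 far above the others. All 8 acidic ribosomal protein genes kept had a response above 0 in both mutants, and AT2G27720 was the 1 that met the rule. PGY2, a large-subunit L6 family protein, was at 121 ± 27.96 and 212 ± 39.2 CPM in card1-1 mock and DMBQ and at 139 ± 16.3 and 225 ± 78.3 CPM in card1-2 (SD, n = 4). Its card1-2 DMBQ replicate 2 gave 333 CPM and the others 159.6 to 231 CPM, and without that library PGY2 did not meet the rule. PGY2 and AT1G33120, also among the 70, share 790 bases at 99.1% identity, so their counts are uncertain. Reads that align to both genes may be among the records counted as not unique.

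Other genes of protein synthesis included ELF5A-3, a translation elongation factor, which was at 22.8 ± 5.84 and 54.4 ± 3.38 CPM in card1-1 mock and DMBQ and at 30.04 ± 5.01 and 47.0 ± 18.7 CPM in card1-2 (SD, n = 4). AT1G15270, annotated as the translation machinery protein TMA7, had responses of -0.04 in WT, 0.64 in card1-1 and 0.64 in card1-2. It was at 62.1 to 68.0 CPM in card1-1 mock and 148, 126, 66.6 and 67.0 CPM in card1-1 DMBQ. In card1-2 it was at 74.6 to 101.7 CPM in mock and 99.96, 238, 83.5 and 94.4 CPM in DMBQ. Mock and DMBQ thus overlapped in both mutants, with card1-2 DMBQ replicate 2 far above the others. KIWI, a DNA-binding transcriptional regulator, had responses of 0.16, 0.83 and 0.74. ERF73, a transcription factor of the ethylene response family associated with low oxygen, had responses of 0.22, 1.00 and 0.65.

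MT2B is a metallothionein, a small cysteine-rich protein that binds copper and zinc. It was at 334, 399, 377 and 309 CPM in WT mock and 357, 343, 445 and 425 CPM in WT DMBQ. In card1-1 it was at 139, 298, 359 and 382 CPM in mock and 628, 452, 528 and 558 CPM in DMBQ. In card1-2 it was at 357, 416, 319.9 and 328 CPM in mock and 375, 1003, 456 and 555 CPM in DMBQ. The card1-1 groups did not overlap, and the card1-2 groups did. Of 4 metallothionein genes kept, MT2B alone met the rule, and MT2A had responses of -0.09, 0.84 and 0.31.

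RCI2A, RCI2B and AT4G30660 encode very small membrane proteins of a family induced by cold and salt, and all 3 genes of the family that were kept were among the 70. RCI2B was at 14.9, 25.2, 19.6 and 12.1 CPM in WT mock and 14.3, 18.9, 16.7 and 19.3 CPM in WT DMBQ. It was at 7.73, 13.0, 14.4 and 18.3 CPM in card1-1 mock and 40.6, 47.2, 18.7 and 21.5 CPM in card1-1 DMBQ. It was at 15.5, 19.5, 16.3 and 17.0 CPM in card1-2 mock and 23.75, 59.9, 21.5 and 31.6 CPM in card1-2 DMBQ. DMBQ and mock did not overlap in either mutant, with the lowest DMBQ values close to the highest mock values. RCI2A lies 516 bases from RCI2B and responded by -0.22 in WT, 0.63 in card1-1 and 0.61 in card1-2. AT4G30660 responded by 0.01, 1.29 and 0.74. In card1-2, RCI2A was at 20.6, 29.7, 23.1 and 22.4 CPM in mock. Its card1-2 DMBQ libraries gave 13.0, 58.3, 15.1 and 62.2 CPM, so the groups overlapped. AT4G30660 also overlapped there, at 6.41 to 13.9 CPM in mock and 9.575 to 33.7 CPM in DMBQ. With 1 library left out, RCI2A met the rule in 15 of 24 recalculations, AT4G30660 in 22 and RCI2B in 23. AGP20, a short arabinogalactan protein of the cell surface, was at 22.2 ± 3.71 and 43.45 ± 6.001 CPM in card1-1 mock and DMBQ and at 22.3 ± 1.05 and 39.0 ± 8.17 CPM in card1-2 (SD, n = 4). AGP22, of the same family, had responses of -0.22 in WT, 0.64 in card1-1 and 0.84 in card1-2. Responses in the family were mixed: of 29 arabinogalactan protein genes kept, 11 were above 0 in both mutants, as were 27.9% of all genes kept. The family's median was 0.01 (WT), -0.13 (card1-1) and 0.30 (card1-2). AGP15 and AGP1 also reached 0.6 in both mutants, with responses of 0.38 and 0.66 in WT. The lowest card1-1 responses were those of FLA8 (-1.69) and AGP31 (-0.85), which had 0.15 and -0.10 in card1-2.

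LHCB4.2, a light-harvesting protein of photosystem II, was the 1 photosystem gene among the 70 of 95 kept, with responses of 0.25 in WT, 0.81 in card1-1 and 0.66 in card1-2. That class of 95, with a median exonic length of 1202 bases, had median responses of 0.08 (WT), 0.34 (card1-1) and 0.15 (card1-2). In card1-1 edgeR called 29 of it higher and 2 lower (3.55% and 3.16% of all genes tested), and in card1-2 4 higher and 0 lower (1.07% and 1.13%). AT4G12490, of the lipid-transfer protein superfamily, varied widely within WT, from 17.8 to 99.9 CPM in mock and 8.87 to 97.4 CPM in DMBQ.

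AT1G72020 had the largest response in card1-1, 1.81, against 0.24 in WT and 0.63 in card1-2. It was at 89.6, 86.0, 73.5 and 58.5 CPM in WT mock and 91.1, 87.9, 80.7 and 104 CPM in WT DMBQ. It was at 17.3, 59.7, 59.5 and 65.15 CPM in card1-1 mock and 231, 222, 153 and 109 CPM in DMBQ, and at 107, 145, 88.7 and 96.4 CPM in card1-2 mock and 161, 263, 82.0 and 172 CPM in DMBQ. The card1-1 groups were apart, and those of card1-2 and WT overlapped. AT2G01008 had the largest mean response of both mutants, 1.504 in card1-1 and 1.35 in card1-2, at low levels of 0.203 to 8.00 CPM in card1-1 mock and 10.6 to 21.5 CPM in DMBQ. It lies 532 bases before the ribosomal RNA gene AT2G01010 on chromosome 2 and shares 1419 bases at 99.1% identity with AT3G41762, which lies 811 bases from the ribosomal RNA gene AT3G41768, so its counts are uncertain.

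Several of the 20 highest mean responses belonged to genes of other or unknown function. AT3G20800, annotated as an Rcd1-like cell differentiation protein, was second, with responses of 0.19 in WT, 1.04 in card1-1 and 1.42 in card1-2. AT3G12587, annotated as part of the oligosaccharyltransferase that adds sugars to proteins, had responses of 0.10, 1.12 and 0.82, and AT3G07910, a reactive oxygen species modulator-like gene, -0.03, 1.18 and 0.63. AT5G42150, of the glutathione S-transferase family of detoxifying enzymes, had 0.05, 0.81 and 0.95, and AT1G56345, of the pseudouridine synthase family that modifies RNA, 0.22, 0.99 and 0.73. For AT1G31940 the values were -0.10, 0.75 and 1.07 and for AT4G29735, an uncharacterized protein, 0.10, 1.08 and 0.69.

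Lower in that order were genes of transcription, RNA processing and signalling. AT4G24440 encodes the gamma chain of the general transcription factor TFIIA (0.14, 0.79 and 0.89 in WT, card1-1 and card1-2), AT3G11500 a small nuclear ribonucleoprotein of the kind that splices pre-mRNA (0.16, 0.84 and 0.74) and GF14 PHI a 14-3-3 protein, which binds phosphorylated partners (0.23, 0.73 and 0.63). AT4G17650, of a lipid transport and polyketide cyclase family, had responses of 0.18, 0.88 and 0.70, and AT5G45350, a proline-rich protein, -0.16, 0.64 and 0.70. Among genes without a described function, AT2G20820 had -0.02, 0.85 and 0.63, AT2G04900 had 0.03, 0.78 and 0.61 and AT5G67610 had -0.04, 0.67 and 0.69. In the same order the 22 genes outside the naming rule spanned -0.22 to 0.26, 0.61 to 1.03 and 0.61 to 0.91.

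Against WT, the 70 genes were mostly lower in the mutants without DMBQ and higher with it, and these comparisons use the same libraries as the rule. In mock the median difference was -0.31 for card1-1 minus WT and -0.17 for card1-2 minus WT (log2 of group means), and 54 of 70 were below WT in both mutants, as were 35.7% of all genes kept. In DMBQ the median difference was 0.50 and 0.47, and 65 of 70 were above WT in both, as were 26% of all genes. edgeR called 0 of the 70 in either mock comparison, where 0 genes in all (0%) differed for card1-1 and 4 (0.0226%) for card1-2, and 8 and 3 of the 70 had an unadjusted p under 0.05. For these unadjusted counts no share over all genes was taken. DESeq2 called 0 of the 70 in either, with 4 genes in all for card1-1 and 10 for card1-2. With limma voom it was also 0 of the 70, with 0 and 4 genes in all. AT1G73120, AT2G41380 and AT4G12490 were the lowest in both mutants without DMBQ, and with DMBQ they were still below WT, at -1.34 and -0.57 for AT1G73120, an F-box family gene. These 3 genes were picked out after their values were seen.

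**Figure D3:**
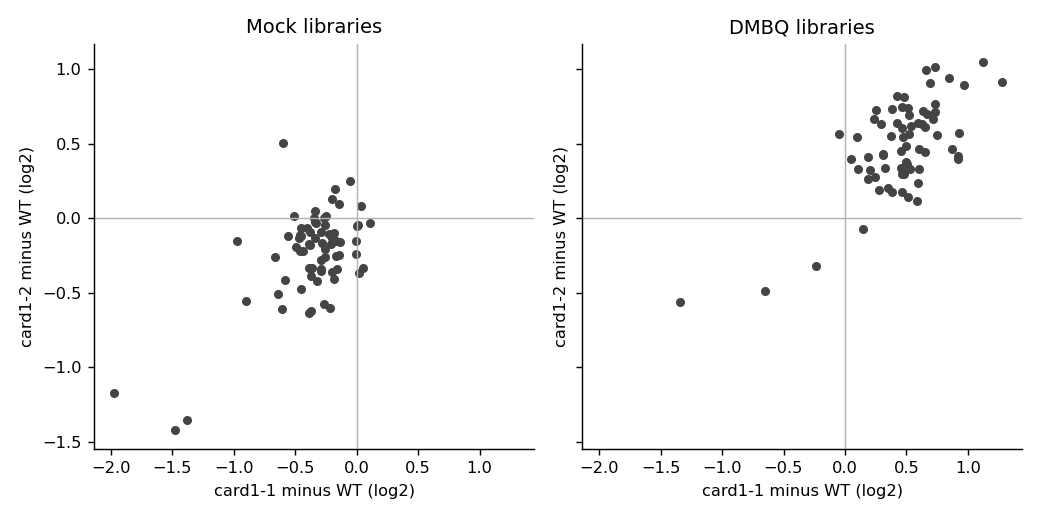
Difference of each mutant from WT in log2 of (mean CPM + 1) for the 70 genes, card1-1 on the x axis and card1-2 on the y axis, in mock libraries (left) and DMBQ libraries (right). Of the 70, 54 lie below 0 for both mutants in mock and 65 above 0 for both in DMBQ.

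Library by library, the median of the 70 genes relative to the WT mock mean (log2) was -0.20 to 0.10 in WT mock and -0.02 to 0.03 in WT DMBQ. It was -0.94 to -0.13 in card1-1 mock and 0.30 to 0.64 in card1-1 DMBQ, and -0.29 to -0.10 in card1-2 mock and 0.32 to 0.61 in card1-2 DMBQ. The summed level of the 70 ran from 1750 to 3045 CPM in card1-1 mock and from 4181 to 5117 CPM in card1-1 DMBQ. In card1-2 it ran from 2699 to 2947 CPM in mock and from 3862 to 6242 CPM in DMBQ, and in WT from 2808 to 3362 and from 3100 to 3477 CPM. The mutants' DMBQ libraries stood above all other libraries in both measures. The rule chose the genes for high means in those libraries, so this separation is favoured by the choice and is a description. Library card1-1 mock replicate 1 gave the -0.94, and without it the rule gave 55 genes, of which 52 were among the 70.

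The share of not-unique alignment records moved with these levels. Its mean was 24.7% and 33.4% in WT mock and DMBQ, 25% and 55.9% in card1-1, and 37.3% and 47.8% in card1-2. Library card1-2 DMBQ replicate 2, at 31.9% and 9000207 counts, nonetheless had a median of 0.49. Over the 24 libraries, which cluster by group, Pearson's r between the share and the median level was 0.71, and 0.17 after removing group means, as a description. Leaving out the 3 libraries above 55%, the rule gave 74 genes, 41 of them among the 70. The part of this share in the result was not tested.

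**Figure D4:**
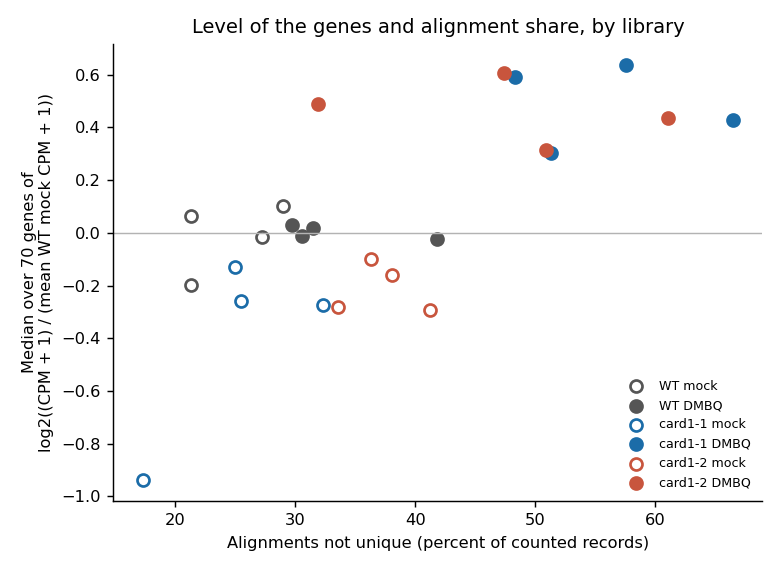
Median level of the 70 genes (y axis, log2 relative to the WT mock mean) against the percent of alignment records counted as not unique (x axis), one point per library. All 8 mutant DMBQ libraries lie at 0.30 or above, and card1-1 mock replicate 1 lies lowest at -0.94 and 17.3%.

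The 70 genes were short. Their median exonic length was 1049 bases (472 to 2106), where that of all genes kept with an annotation was 1886, and 66 of the 70 (94.3%) were below that median. With all genes in 4 bins of near-equal size from shortest to longest, 54, 12, 4 and 0 of the 70 fell in each. The 187 genes of the mirrored rule, lowered in both mutants and within the limits in WT, had a median of 3412 bases, with 3, 8, 23 and 153 in those bins. The 79 genes raised in all 3 genotypes had a median of 1380 bases. The same order ran through all genes: with 10 bins, the median response in the shortest bin was 0.06 (WT), 0.33 (card1-1) and 0.22 (card1-2), and in the longest -0.09, -0.32 and -0.33. After removal of a smooth length and GC trend in each library, the rule gave 82 genes, 38 of them among the 70, and the median response of the 70 was 0.75 and 0.65 in the mutants. Median GC was 40.3% against 41.4%, and the median number of exons 3 against 5.

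**Figure D5:**
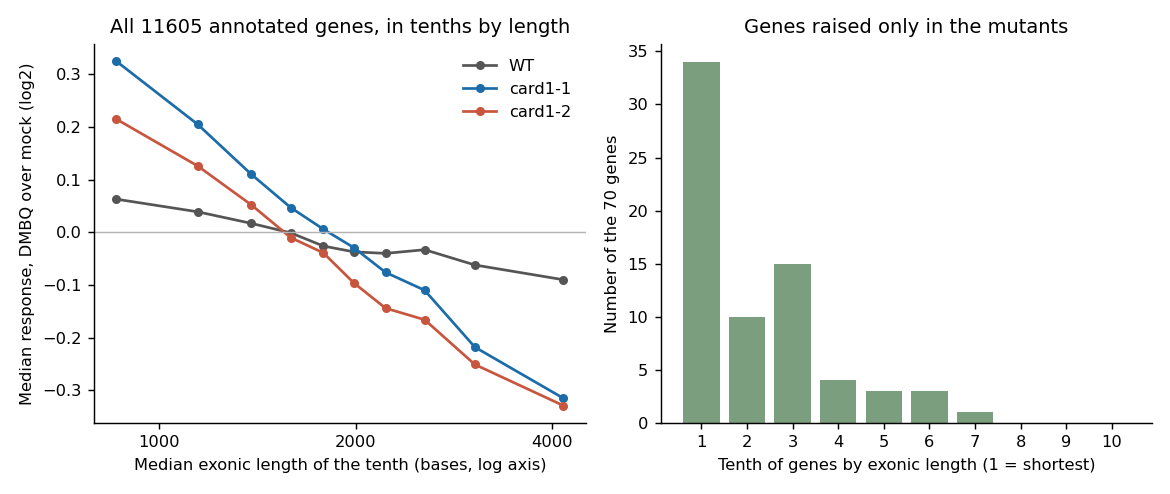
Left, median response (log2) of genes kept in 10 bins by exonic length (x axis, bases, log axis) for WT, card1-1 and card1-2; right, number of the 70 genes per bin. The mutant lines fall from 0.33 and 0.22 in the shortest bin to -0.32 and -0.33 in the longest.

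In the 250 bases before the annotated start, searched on both strands, TGGGCC (site II, found in promoters of ribosomal genes) was present in 27.1% of the 70 and in 19.0% of all genes kept. TATAAA was present in 58.6% against 45.8% and GATAAG (the I-box) in 22.9% against 13.0%. TTGACC (the W-box) was found in 8.6% against 11.6%, CACGTG (the G-box) in 8.6% against 7.5%, AAACCCTA (the telo-box) in 2.9% against 3.7% and ACGCGT in 1.4% against 2.0%. These are counts of letters, and the shares were not compared by a test. The 70 were spread over chromosomes 1 to 5 as 17, 12, 18, 8 and 15. The closest were RCI2A and RCI2B, 516 bases apart, and AT4G30660 and AT4G30670, 1123 bases apart. Between the starts of these pairs lay the starts of 1 and 3 other annotated genes, which may overlap a member, and no 2 of the 70 had none between. Of the 70, 23 overlapped another annotated gene, so that their counts may hold reads of that gene.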

How the data were processed

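RNA sequencing libraries were made by the published Townsley method, per the labels' protocols. CASAVA, bcl2fastq 2.17, TopHat, TopHat2 2.1.1, HTSeq 0.6.1 and the build TAIR10 are listed per the submitters' processing notes, without their roles. For annotation release, strand setting and overlap mode the entry is: not given in the sources used here. The authors deposited one table of reads counted per gene and library, recorded here under the unit expected count, with HTSeq named per the submitters' processing notes. Its columns also carry 1 line of percentages, but each gene value is a whole number as deposited, with no rounding applied. Totals and tests omit 9 lines without a gene; reads outside any gene made up 1.86% to 3.1%. CPM were computed from each library's total over all genes, and the rule was applied with a pseudocount of 1 CPM. Groups came from the labels.

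Tests were fitted with edgeR 4.0.16 (robust quasi-likelihood, TMM scaling, all 24 libraries, no replicate block, genes with a count of at least 10 by group and 15 in all, adjusted p under 0.05) in R 4.3.3; DESeq2 1.42.0 and limma 3.58.1 voom were alternatives, with others for scaling, filters, pseudocounts, length and GC, alignment share and left-out libraries. The scripts were tested on simulated data. Lengths, positions and upstream bases are from the RefSeq annotation of TAIR10.1, and copies were searched with blastn. Counts limit the precision of genes near the minimum of 10 CPM.

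The members and lists were chosen with earlier results of these data known. Named genes were the 20 with the highest mean response of both mutants, the 10 with the highest mean CPM, up to 4 per functional class, and those nearest the thresholds; family members beside them were added afterwards. Of the genes this rule names, 1 is counted in the totals and not reported here.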

Additional observations from a re-analysis of the deposited data

Results flagged for a closer look

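Each group of 4 libraries was examined for a library far from the other 3, in 108 groups, of which chance flags about 1 in 20; 7 were flagged. In card1-1 mock, replicate 1 was low for AT2G01008 (0.2033 CPM, the others 6.937 to 8.001), for AT1G72020 (17.28 CPM, the others 59.46 to 65.15) and for LHCB4.2 (46.15 CPM, the others 118.2 to 132.6). In WT mock, replicate 3 was high for AT4G12490 (99.92 CPM, the others 17.82 to 26.51). In WT DMBQ, replicate 3 was high for AT2G36950 (123.9 CPM, the others 62.79 to 71.84), and replicate 2 was high for the share of alignment records not unique (41.8%, the others 29.7% to 31.5%). In card1-2 DMBQ, replicate 2 was high for AT2G27720 (1412 CPM, the others 518.9 to 639.7).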

How the results depend on the processing

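The number of genes that meet the rule was 34 with a pseudocount of 5 CPM, 36 with a mean CPM of 20 or more, 182 with no filter on mean CPM and 44 with medians over libraries (30 of them among the 70). It was 54 to 85 with 1 library left out. For the 48 genes of the naming rule, the response of both mutants minus that of WT did not reverse under the alternatives run. The rule chose these genes for a positive difference in the same libraries, so nothing is read from this. Without the libraries above 55%, 65 of the 67 genes measured kept responses above 0 in both mutants, and 63 of 66 when card1-1 mock replicate 1 was also left out, an alternative chosen after seeing the data.

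Counts of the 70 called are given with the genes called in all and the median log2 change of the 70. In card1-1 the 27 (1189 in all, median 0.88) became 6 with the not-unique share as a covariate (119, 0.86) and 8 in the added alternative (512, 0.71). Leaving out 1 library gave 14 to 32, the 14 without card1-1 mock replicate 1 (616, 0.79). In card1-2 the 16 (390, 0.81) became 6 with total counts (421, 0.74), 29 with DESeq2 (622, 0.83), 2 with length and GC offsets (196, 0.68) and 10 with the share as a covariate (361, 0.82). Leaving out 1 library gave 4 to 21, with 4 to 7 without any 1 card1-2 mock library and 6 without card1-2 DMBQ replicate 2 (281, 0.79). For both mutants minus WT the 0 (11, 0.82) became 1 with no filter on low counts (16, 0.81), 6 with DESeq2 (123, 0.83), 1 with limma voom (22, 0.87) and 1 with the share as a covariate (6, 0.84), and 0 to 1 with 1 library left out. The cause of these changes was not tested.

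Same-numbered libraries deviated together in WT (correlations 0.165 to 0.183 in 4 of 4 pairs) but not throughout the mutants (-0.00166 to 0.203), with 7 of 12 pairs above 0.1, so the numbers were not taken as pairs in comparisons that hold mutants. The fit with the replicate block called 33 in card1-1 (1359 in all), 18 in card1-2 (528), 2 for the difference from WT (32) and 1 for card1-1 minus WT without DMBQ (6, against 0). With length and GC offsets too, it called 26 (998) and 7 (300). Depth limits genes near 10 CPM.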
